A study of Mus musculus with 6 samples.

Results

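The genes examined here encode the machinery that builds and stocks cilia: the intraflagellar transport (IFT) particles, their motors, and the BBSome with its helpers. They were chosen by gene symbol from the known membership of these complexes, not by their values. Earlier results of these data were known when they were chosen, and they do not include every subunit. All 38 symbols were found among the 55276 rows of the deposited table, and all 38 passed the filter on low values that left 17584 genes for testing. RNA was measured in whole mouse oviducts on day 2 of pregnancy, in 3 libraries of Cdc42f/f mice and 3 libraries of PgrCreCdc42f/f mice. Both groups were C57BL/6 females, at least 8 weeks old, mated with fertile wild-type males, and both carried loxP sites around exon 2 of Cdc42, the gene of a small GTPase of cell polarity. In PgrCreCdc42f/f mice, Cre under control of Pgr, the progesterone receptor gene, deletes this exon in the female reproductive tract, and the study found CDC42 protein lost in the isthmus and kept in the ampulla. The libraries hold all regions of the oviduct, no group carried PgrCre without floxed Cdc42, and the number of animals per library is not stated.

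Cilia have no ribosomes, so their proteins are carried in. IFT-B moves cargo from the base to the tip with kinesin-II, IFT-A and dynein-2 bring the particles back, and IFT-A also helps membrane proteins to enter. The BBSome, a coat-like complex recruited to membranes by the GTPase ARL6, carries membrane proteins and leaves the cilium on IFT trains. Primary cilia, the single signalling cilia of many cell types, and the motile cilia of multiciliated cells use the same machinery, whereas axonemal dyneins, radial spokes and the central pair belong to motile cilia. In the oviduct, multiciliated cells lie among secretory cells, and their beating helps to move the embryo.

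None of the 38 genes was called higher or lower between the genotypes, but most stood slightly lower in PgrCreCdc42f/f oviducts. The median log2 difference was -0.13, or 91.4% of the Cdc42f/f level, against 0.01 over all tested genes. It was -0.08 without PgrCreCdc42f/f replicate 2 and -0.21 without PgrCreCdc42f/f replicate 1. The 20 IFT-A and IFT-B genes among the 38 all had a negative difference, with a median of -0.16. However, Ift43, Ttc21b, Ift81 and Ift20 turned positive when some single libraries were left out. Among the kinesin-II genes, Kif3a and Kif3b were at 0.14 and Kifap3 at -0.01. The axonemal dynein motors, measured in the same libraries, had a median of -0.60.

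Many ciliary genes carry an X-box near their start, the motif bound by RFX transcription factors, which act in ciliated cells. It is shown here because it is a feature that genes of these complexes can share and that played no part in choosing them. RefSeq promoter windows, 250 bases before to 50 bases after the start on GRCm38.p6, matched 34 of the 38 genes in 35 windows, since Arl6 has more than 1. Ift80, Ift81, Ift122 and Dync2li1 were not matched. A loose X-box was searched on both strands as GTNNCC, any 2 bases, then NGNAAC. It was found in 5 of the 35 windows (14.3%), against 2.17% of all 32851 windows. This spelling was chosen after others had been tried on the same windows, and a match is not a binding site. In the first match of Ift22, in Ift57 and in Bbs1 the spelling is met only on the strand opposite to the gene. The matches are given 5′ to 3′ on the strand of the gene with the X-box in capitals:
Bbs7 (chr3:36613489-36613518, minus strand): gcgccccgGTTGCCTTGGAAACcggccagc
Ift22, first match (chr5:136908079-136908108, plus strand): ctgtcaggGTTTCCTGGGCTACtgcgcagc
Ift22, second match (chr5:136908109-136908138, plus strand): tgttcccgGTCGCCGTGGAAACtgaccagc
Ift57 (chr16:49699199-49699228, plus strand): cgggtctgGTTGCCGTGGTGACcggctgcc
Bbs4 (chr9:59353464-59353493, minus strand): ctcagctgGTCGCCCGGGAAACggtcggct
Bbs1 (chr19:4906605-4906634, minus strand): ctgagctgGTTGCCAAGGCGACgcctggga

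The match of Bbs7 began 121 bases before the start, that of Ift57 87 bases before it, and those of Ift22 63 and 33 bases before it. In Bbs4 and Bbs1 the match lay 23 bases and 1 base after the start. A stricter spelling, GTTNCC, any 2 bases, then GGNAAC, was present in Bbs7 alone among these genes and in 0.451% of all windows. The element GTTGCC, searched on both strands, fits the left end of such an X-box and, read on the other strand, the right end. It was present in 14 of the 35 windows (40%), against 12.5% of all. The windows compared were not matched for base composition, and these shares were not tested. In Bbs7 the element is the left end of the X-box shown above. In Ift57 and Bbs1 it lies in the X-box shown above as the right end, read on the other strand. Of the 5 genes with the smallest p values, Traf3ip1, Kif17 and Dync2h1 had it, and Bbs2 and Ift52 did not. Bbs5, Arl13b and Kif3a, whose differences were positive, had it too. The element began 42 bases after the start in Bbs5 and 36 bases after it in Dync2h1. In Traf3ip1, Kif17, Kif3a and Arl13b it began between 73 and 181 bases before the start. For Kif17 and Dync2h1 the RefSeq start used lies inside the GENCODE gene, whose position is given further below. The element is shown in capitals for 3 genes of each sign (for Dync2h1 on the other strand, so that it reads GGCAAC):
Traf3ip1 (chr1:91494577-91494606, plus strand): gggcgcgcgtccGTTGCCaaggccgcgcgg
Kif17 (chr4:138262166-138262195, plus strand): gacgtcacggagGTTGCCcagcaacggcga
Dync2h1 (chr9:7177009-7177034, minus strand): gcgacggagcttGGCAACtgctgagt
Bbs5 (chr2:69647201-69647220, plus strand): caaagccggcgcGTTGCCtt
Kif3a (chr11:53567259-53567288, plus strand): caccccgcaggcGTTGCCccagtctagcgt
Arl13b (chr16:62847204-62847233, minus strand): acagacgctccaGTTGCCtagttaccagag

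Values of the genes with and without a match overlapped. The 5 genes with an X-box had log2 differences between -0.29 and -0.01 with a median of -0.13, and the 29 matched genes without one had a median of -0.07. The 14 genes with the element had differences from -0.49 to 0.26 with a median of -0.22, and the 20 without had a median of -0.07. These values are descriptions and were not tested.

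Levels in Cdc42f/f oviducts differed 21.7-fold among the 38 genes, from a mean of 1.63 RPKM for Kif17 to 35.3 RPKM for Ift20. RPKM is reads per kilobase of exon, scaled to library depth. The length behind it is that of all annotated exons of a gene together, such as 12428 bases for Ift80 and 1525 for Ift20. Levels and ranks between genes therefore depend partly on annotation. The complexes, by their genes among the 38, overlapped in level. Within IFT-A the mean levels spanned 10.4-fold, within the IFT-B core 3.18-fold, within the BBSome 3.79-fold, and within the 3 chaperonin-like genes 1.57-fold. The median mean level was 16.5 RPKM in the IFT-B core and 20.4 RPKM in peripheral IFT-B, 9.39 RPKM in IFT-A, 6.56 RPKM in the BBSome and 2.73 RPKM in the chaperonin-like genes. Reads recovered from the values were between 188 and 8489 per gene and library. RNA of all 38 genes was thus present in both genotypes.

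**Figure D1:**
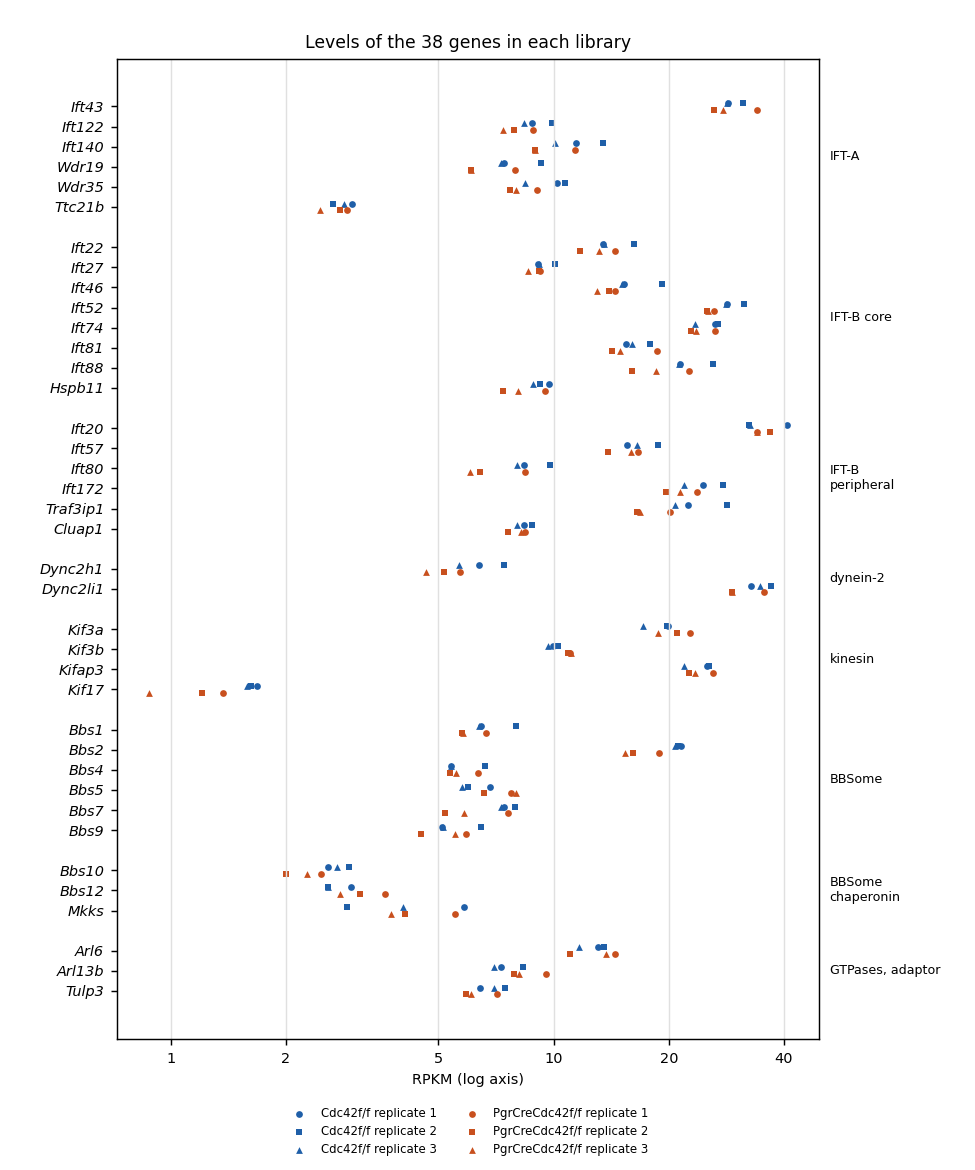
RPKM (x axis, log scale) of each of the 38 genes (y axis, grouped by complex) in each of the 3 Cdc42f/f libraries (blue, upper row of a gene) and 3 PgrCreCdc42f/f libraries (orange, lower row), with a marker shape for each replicate number. The genes span from Kif17, the lowest at a Cdc42f/f mean of 1.63 RPKM, to Ift20 at 35.3 RPKM, while the 2 genotypes overlap for most genes.

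Differences were tested with limma on log2(RPKM + 0.1) over all 17584 genes, and a gene was called at a Benjamini-Hochberg adjusted p below 0.05. Such p values measure only the spread between these samples. No gene of the 38 was called lower, where 0.893% of all tested genes were, and none was called higher, where 0.762% were. At an unadjusted p below 0.05, 5 of the 38 were lower (13.2%) against 11.0% of all genes, and 0 were higher against 9.74%. The 5 were Bbs2, Traf3ip1, Ift52, Kif17 and Dync2h1. The log2 difference was negative for 31 of the 38 genes (81.6%), against 49.1% of all tested genes. The 3 PgrCreCdc42f/f values lay below all 3 Cdc42f/f values for 6 genes (15.8%), near the 13.9% of all genes, and above them for Kif3b alone (2.63%), against 13.5%. Genes of one complex are not independent of each other in these libraries, and no test over the 38 genes was made.

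The 95% intervals of the differences limit what the data allow. With all 6 libraries and each gene taken alone, the interval excluded a fall by 1 on the log2 scale for all 38 genes. The lowest bound was -0.94, that of Kif17, whose difference was -0.61 without PgrCreCdc42f/f replicate 1. For 30 of the 38 genes the interval also lay above -0.60, the median of the axonemal dynein motors. That median was -0.38 without Cdc42f/f replicate 2 and -0.78 without PgrCreCdc42f/f replicate 1. Standard errors were between 0.07 and 0.27 with a median of 0.11. In bulk libraries such as these, fewer cells of a type and less RNA per cell cannot be told apart.

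**Figure D2:**
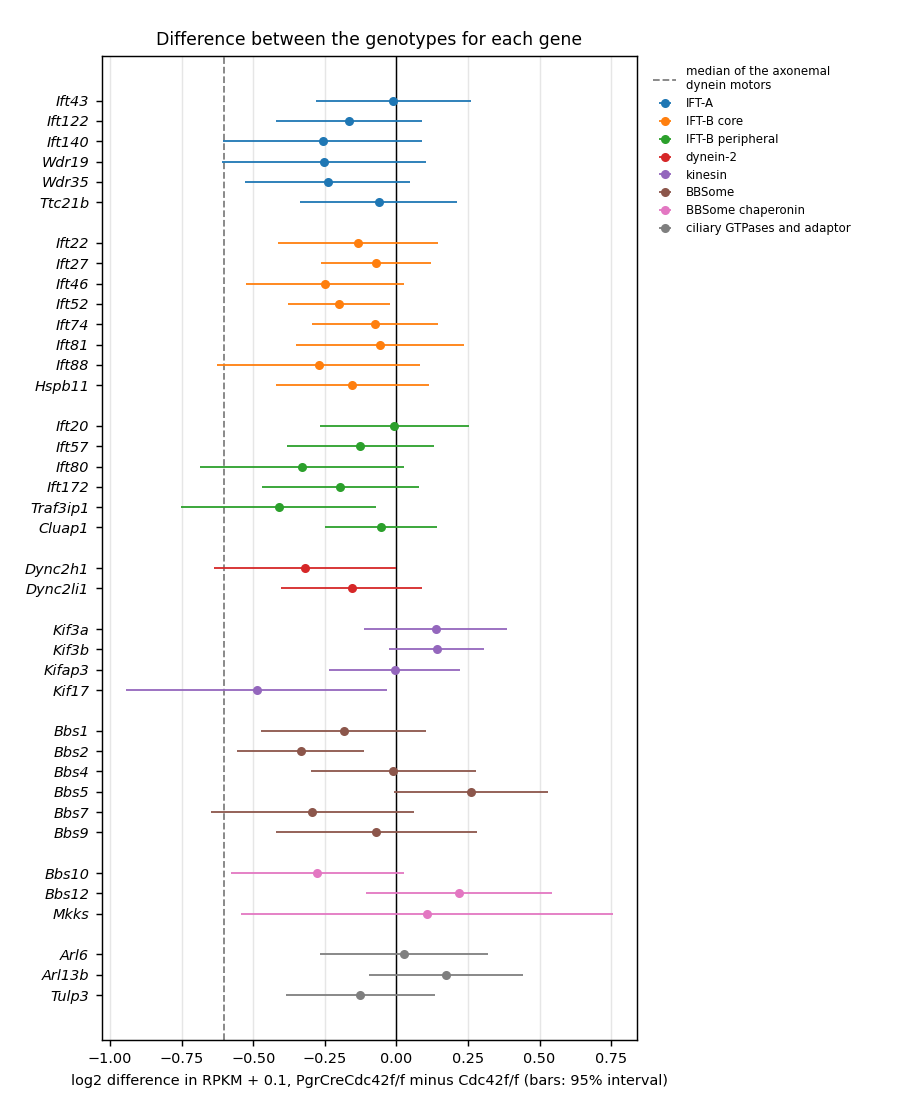
Log2 difference (x axis, PgrCreCdc42f/f minus Cdc42f/f, on RPKM + 0.1) of each of the 38 genes (y axis, coloured by complex), with 95% intervals from limma as bars and the median of the axonemal dynein motors, -0.60, as a dashed line. All IFT-A and IFT-B points lie at or left of 0, the kinesin-II points lie at -0.01 and 0.14, and 5 intervals exclude 0.

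IFT-A is the particle of the return journey. All 6 of its genes had a negative difference (median -0.20, and -0.12 without Cdc42f/f replicate 2), and none passed the test. Ift43, a small subunit and the most abundant of the complex, was at 28.6, 31.3 and 28.4 RPKM in the control Cdc42f/f libraries and 33.99, 26.3 and 27.7 RPKM in those of PgrCreCdc42f/f mice. Ttc21b, which encodes the IFT139 subunit, was the least abundant at 2.97, 2.65 and 2.84 RPKM against 2.88, 2.76 and 2.44 RPKM. Both genes overlapped between the genotypes, with log2 differences of -0.01 and -0.06.

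The 3 most negative differences of IFT-A were those of Ift140, Wdr19 and Wdr35. Ift140 was at 11.4, 13.4 and 10.1 RPKM in the control Cdc42f/f libraries and 11.4, 8.94 and 8.92 RPKM in those of PgrCreCdc42f/f mice (log2 difference -0.26, adjusted p = 0.368). Wdr19, encoding IFT144, was at 7.41, 9.28 and 7.27 RPKM against 7.92, 6.08 and 6.09 RPKM (-0.25, adjusted p = 0.390). Wdr35, encoding IFT121, was at 10.2, 10.7 and 8.42 RPKM against 9.06, 7.71 and 7.96 RPKM (-0.24, adjusted p = 0.315). For these 3 genes PgrCreCdc42f/f replicates 2 and 3 lay below every Cdc42f/f library, whereas replicate 1 lay among them. Ift122, the sixth subunit, went from a mean of 9.01 ± 0.790 to 8.02 ± 0.744 RPKM (log2 difference -0.17, SD over 3 libraries), with the same 2 libraries lowest.

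The IFT-B core holds the particle together and binds tubulin. All 8 of its genes had a negative difference (median -0.14). The median was -0.09 without Cdc42f/f replicate 2 and -0.08 without PgrCreCdc42f/f replicate 2. Ift52, a scaffold subunit and the most abundant core gene (chromosome 2, 163017354 to 163046141), was at 28.4, 31.5 and 28.3 RPKM in the control Cdc42f/f libraries and 26.3, 25.1 and 25.3 RPKM in those of PgrCreCdc42f/f mice. Its groups did not overlap, and the log2 difference was -0.20 (SE 0.07, adjusted p = 0.197, limma). Ift46, which in Chlamydomonas helps to carry outer dynein arms into the flagellum, was at 15.3, 19.2 and 15.1 RPKM against 14.5, 13.97 and 12.98 RPKM. Its groups did not overlap either (log2 difference -0.25, adjusted p = 0.281), and Cdc42f/f replicate 2 stood above the other controls.

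Ift88, whose loss abolishes cilia in the mouse, was at 21.4, 26.02 and 21.3 RPKM in the control Cdc42f/f libraries and 22.6, 16.0 and 18.5 RPKM in those of PgrCreCdc42f/f mice (log2 difference -0.27, adjusted p = 0.351). Hspb11, encoding the IFT25 partner of IFT27 and the least abundant core gene, was at 9.71, 9.20 and 8.83 RPKM against 9.52, 7.39 and 8.09 RPKM (-0.15, adjusted p = 0.478). In both genes PgrCreCdc42f/f replicate 1 lay within the range of the controls and the other 2 lay below it. The GTPase-like subunits Ift22 and Ift27 had differences of -0.13 and -0.07, and Ift74 and Ift81, which form the tubulin-binding pair, of -0.07 and -0.06. The last pair was at 25.6 ± 1.89 and 16.5 ± 1.27 RPKM in controls, against 24.3 ± 1.84 and 15.9 ± 2.35 RPKM with PgrCre (SD, n = 3 each), a difference within the spread of the libraries.

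Peripheral IFT-B subunits link the core to kinesin, to cargo and to membranes. All 6 genes had a negative difference (median -0.16), of very unequal size. Without replicate 2 of either genotype the median was -0.09, and Ift20 turned positive without Cdc42f/f replicate 1 or without PgrCreCdc42f/f replicate 1 or 3. Traf3ip1, which encodes the microtubule-binding subunit IFT54 (chromosome 1, 91494647 to 91529307), was at 22.5, 28.3 and 20.7 RPKM in the control Cdc42f/f libraries and 20.2, 16.5 and 16.8 RPKM in those of PgrCreCdc42f/f mice. Its groups did not overlap, though PgrCreCdc42f/f replicate 1 and Cdc42f/f replicate 3 nearly met. The log2 difference of -0.41 (SE 0.14, adjusted p = 0.174, limma) was the most negative among the IFT genes. The sequence before its RefSeq start is given as the longer surroundings of the element shown above (chr1:91494418-91494667, plus strand, element in capitals):
Traf3ip1 promoter: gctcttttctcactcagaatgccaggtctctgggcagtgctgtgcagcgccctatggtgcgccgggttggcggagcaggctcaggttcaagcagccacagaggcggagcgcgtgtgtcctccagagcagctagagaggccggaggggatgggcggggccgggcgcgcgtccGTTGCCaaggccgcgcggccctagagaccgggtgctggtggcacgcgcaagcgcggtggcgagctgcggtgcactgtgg

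Ift20, which also serves at the Golgi in sending proteins to the cilium, was the most abundant of all 38 genes at 40.8, 32.4 and 32.7 RPKM in the control Cdc42f/f libraries and 33.9, 36.9 and 33.9 RPKM in those of PgrCreCdc42f/f mice. Its level differed by -0.01 on the log2 scale (95% interval -0.27 to 0.25), and Cdc42f/f replicate 1 stood above the other 5 libraries. Ift80 was at 8.37, 9.76 and 8.01 RPKM against 8.40, 6.41 and 6.05 RPKM (log2 difference -0.33, adjusted p = 0.272). Ift172, the largest IFT-B subunit, was at 24.6, 27.7 and 22.0 RPKM against 23.7, 19.7 and 21.4 RPKM (-0.20, adjusted p = 0.382). For Ift80 and Ift172, PgrCreCdc42f/f replicates 2 and 3 again lay below all controls and replicate 1 did not.

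Cluap1, encoding IFT38, was the least abundant peripheral gene of the controls at 8.39, 8.76 and 8.03 RPKM, and stood at 8.40, 7.61 and 8.23 RPKM with PgrCre (log2 difference -0.05). Of its exon bases, 22.4% are shared with another annotated gene on the same strand and 18.4% on the other, so its level is less certain. Ift57 had a difference of -0.13, within the spread of its libraries, and 7.86% of its exon bases face a gene on the other strand.

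Dynein-2 drives the return of IFT trains. Dync2h1, its heavy chain (chromosome 9, 6928503 to 7184446), was at 6.40, 7.43 and 5.67 RPKM in the control Cdc42f/f libraries and 5.71, 5.17 and 4.64 RPKM in those of PgrCreCdc42f/f mice (log2 difference -0.32, SE 0.13, adjusted p = 0.237, limma). The groups overlapped by a small margin, at 5.67 and 5.71 RPKM. Dync2li1, its light intermediate chain, was at 32.8, 37.0 and 34.6 RPKM against 35.5, 29.3 and 29.2 RPKM (-0.16, adjusted p = 0.436). Both genes were lowest in PgrCreCdc42f/f replicate 3, and in Cdc42f/f oviducts the RPKM of the light intermediate chain was 5.36-fold that of the heavy chain.

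The kinesin genes had differences of both signs. Kif3a, a motor subunit of kinesin-II, was at 19.9, 19.7 and 17.1 RPKM in the control Cdc42f/f libraries and 22.7, 20.99 and 18.8 RPKM in those of PgrCreCdc42f/f mice (log2 difference 0.14, 95% interval -0.11 to 0.39). Kif3b, its partner motor subunit, was at 9.98, 10.3 and 9.67 RPKM against 11.01, 10.9 and 11.1 RPKM (0.14, interval -0.03 to 0.31, adjusted p = 0.309). Kif3b was the 1 gene of the 38 with every PgrCreCdc42f/f value above every Cdc42f/f value. Kifap3, the subunit that joins the motor to its cargo, was at 25.1, 25.4 and 21.9 RPKM against 26.1, 22.5 and 23.4 RPKM (-0.01, interval -0.24 to 0.22). Kinesin-II also carries cargo in cells without motile cilia, including along axons.

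Kif17, a separate kinesin of cilia and dendrites (chromosome 4, 138250435 to 138301967), was at 1.68, 1.62 and 1.58 RPKM in the control Cdc42f/f libraries and 1.37, 1.21 and 0.876 RPKM in those of PgrCreCdc42f/f mice. Its groups did not overlap, and its log2 difference of -0.49 (SE 0.19, adjusted p = 0.216, limma) was the most negative of the 38. It was -0.32 without PgrCreCdc42f/f replicate 3 and -0.30 at a pseudocount of 1, where Traf3ip1 was more negative (-0.37 and -0.39). Kif17 was also the gene with the fewest reads, between 188 and 350 per library. Levels of Kif17 and Kif3b thus lay apart in opposite directions, yet neither passed the test after adjustment.

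The BBSome had a median difference of -0.13, with 5 of its 6 genes among the 38 negative. The median was -0.02 without Cdc42f/f replicate 2, -0.05 without PgrCreCdc42f/f replicate 2 and -0.20 without PgrCreCdc42f/f replicate 1. Bbs2, which encodes one of its β-propeller subunits (chromosome 8, 94067954 to 94098928), was at 21.5, 21.2 and 20.8 RPKM in the control Cdc42f/f libraries and 18.9, 16.2 and 15.4 RPKM in those of PgrCreCdc42f/f mice. The groups did not overlap, the controls spanned less than 1 RPKM, and PgrCreCdc42f/f replicate 1 stood nearest to them. The log2 difference was -0.33 (SE 0.09, 95% interval -0.56 to -0.11), or 79.3% of the control level. Its adjusted p of 0.118 (limma) was the smallest of the 38. Without PgrCreCdc42f/f replicate 1 the adjusted p was 0.0625, and it lay between 0.196 and 0.305 when any other library was left out.

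Bbs5, whose protein binds phosphoinositide lipids, ran the other way at 6.80, 5.97 and 5.77 RPKM in the control Cdc42f/f libraries and 7.73, 6.60 and 7.97 RPKM in those of PgrCreCdc42f/f mice (log2 difference 0.26, SE 0.11, adjusted p = 0.252). Its value in PgrCreCdc42f/f replicate 2 was below that of Cdc42f/f replicate 1, so the groups overlapped. Bbs7, another β-propeller subunit and bearer of the X-box shown above, was at 7.44, 7.90 and 7.27 RPKM against 7.61, 5.19 and 5.83 RPKM (-0.29, adjusted p = 0.316). Bbs9, the least abundant subunit measured, was at 5.10, 6.48 and 5.16 RPKM against 5.90, 4.49 and 5.54 RPKM (-0.07, adjusted p = 0.820). Bbs2 and Bbs5, subunits of a single complex, thus had differences of opposite sign, with 95% intervals of -0.56 to -0.11 and -0.01 to 0.53 that do not meet. These 2 genes were singled out as the most negative and the most positive of the BBSome, and the difference between them was not itself tested. Bbs1, which binds ARL6, and Bbs4 had differences of -0.18 and -0.01.

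Bbs10, Bbs12 and Mkks encode chaperonin-like proteins that assemble the BBSome. Bbs10 was at 2.57, 2.92 and 2.71 RPKM in the control Cdc42f/f libraries and 2.47, 2.00 and 2.27 RPKM in those of PgrCreCdc42f/f mice, without overlap (log2 difference -0.28, adjusted p = 0.275). Bbs12 was at 2.95, 2.58 and 2.57 RPKM against 3.63, 3.11 and 2.76 RPKM (0.22, adjusted p = 0.415). Bbs10 and Bbs12 thus pointed in opposite directions at levels under 4 RPKM. Mkks had the largest standard error of the 38, at 0.27, with 5.82, 2.88 and 4.04 RPKM against 5.53, 4.10 and 3.75 RPKM (0.11, 95% interval -0.54 to 0.76), and 29.3% of its exon bases are shared with another gene on the same strand.

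Of the GTPases and the adaptor, Arl6, the recruiter of the BBSome, was at 13.1, 13.5 and 11.7 RPKM in the control Cdc42f/f libraries and 14.4, 11.04 and 13.7 RPKM in those of PgrCreCdc42f/f mice (log2 difference 0.03). Arl13b, a GTPase of the ciliary membrane, was at 7.29, 8.30 and 7.01 RPKM against 9.55, 7.88 and 8.12 RPKM (0.17, adjusted p = 0.430). Tulp3, which joins IFT-A to membrane cargo such as receptors, was at 6.42, 7.48 and 6.98 RPKM against 7.12, 5.91 and 6.10 RPKM (-0.13, adjusted p = 0.552). All 3 genes were highest or second highest in PgrCreCdc42f/f replicate 1 and were the lowest of their genotype in replicate 2.

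**Figure D3:**
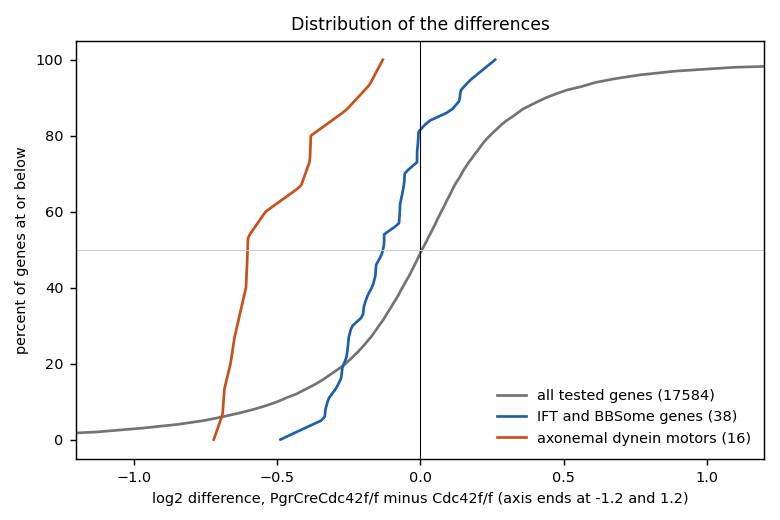
Percentiles (y axis) of the log2 difference (x axis, PgrCreCdc42f/f minus Cdc42f/f) for all 17584 tested genes (grey), the 38 IFT and BBSome genes (blue) and 16 axonemal dynein motor genes (orange). The blue line crosses 50% at -0.13 and the orange line at -0.60, and the blue line spans from -0.49 to 0.26.

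The differences were uneven over the libraries. Relative to the mean of the Cdc42f/f libraries, the median over the 38 genes was -0.02, 0.10 and -0.09 in Cdc42f/f replicates 1 to 3 and 0.01, -0.23 and -0.19 in PgrCreCdc42f/f replicates 1 to 3. PgrCreCdc42f/f replicate 1 thus lay within the controls. Cdc42f/f replicate 2 was the highest library for 23 of the 38 genes, against 20.01% of all tested genes, and PgrCreCdc42f/f replicate 2 was the lowest for 20 of the 38, against 16.1%. Without PgrCreCdc42f/f replicate 1, 13 of the 38 genes (34.2%) were lower at an unadjusted p below 0.05, against 11.6% of all tested genes. Without Cdc42f/f replicate 2, or without PgrCreCdc42f/f replicate 2 or 3, 1 gene was (2.63%), against 7.73%, 8.06% and 9.18% of all. In none of these fits was a gene of the 38 called.

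**Figure D4:**
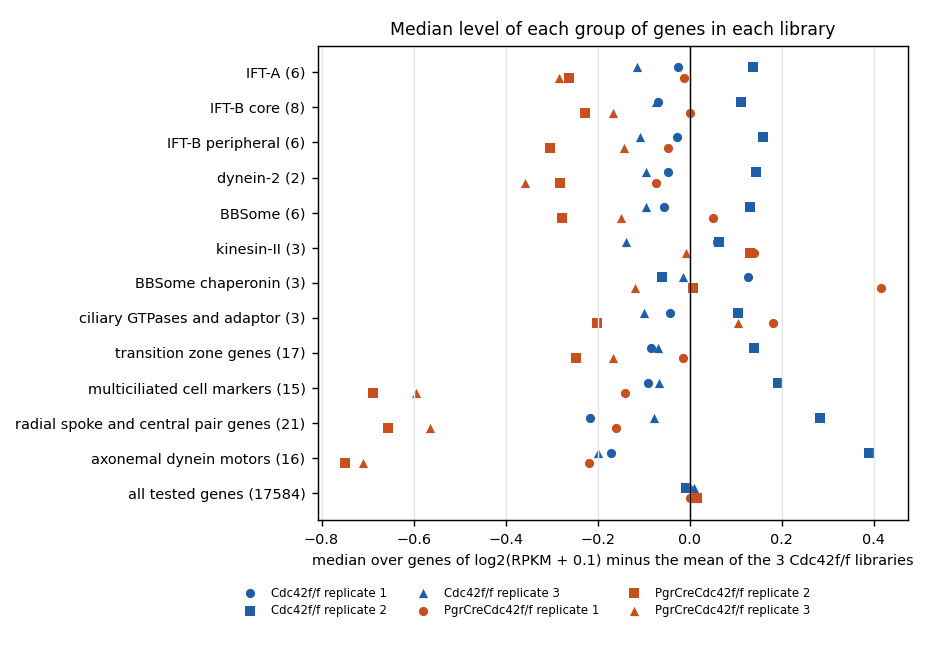
Median over the genes of each group (y axis, number of genes in brackets) of log2(RPKM + 0.1) minus the mean of the 3 Cdc42f/f libraries (x axis), for each Cdc42f/f (blue) and PgrCreCdc42f/f (orange) library. For the 3 IFT groups, PgrCreCdc42f/f replicates 2 and 3 lie between -0.30 and -0.14 and replicate 1 near 0, and for the axonemal dynein motors the same libraries lie at -0.75, -0.71 and -0.22.

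Axonemal and transition zone genes were lowest in the same libraries. The 16 axonemal dynein motors all had a negative difference (0 called, median -0.60), with library medians of -0.17, 0.39 and -0.20 in Cdc42f/f and -0.22, -0.75 and -0.71 in PgrCreCdc42f/f. The 21 tested radial spoke and central pair genes were also all negative, with 1 called. Their median was -0.50, and between -0.61 and -0.36 with 1 library left out. Genes of the transition zone, the gate at the base of cilia of both kinds, lay nearer to the 38 genes, with 15 of 17 negative, 0 called and a median of -0.14 (-0.07 without Cdc42f/f replicate 2). Among 12 genes of hedgehog signalling, which in mammals runs through primary cilia, 9 had a positive difference (0 called, median 0.14). Their library medians were -0.16, 0.08 and 0.11 in Cdc42f/f and 0.09, 0.07 and 0.21 in PgrCreCdc42f/f, so that the lowest was Cdc42f/f replicate 1, without which the median difference was 0.0047. Some axonemal and multiciliated cell genes had been named by the study from oviducts of these genotypes, so these lists are not independent of it.

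Of 29 further genes of IFT, its motors, the BBSome and ciliary GTPase traffic, 28 were tested and 0 were called. Of the 28, 19 had a negative and 9 a positive difference (median -0.02, between -0.07 and 0.0002 with 1 library left out). The list mixes further subunits of these complexes with genes that serve beyond cilia, such as light chains of many dyneins. Among IFT-B subunits, the differences were -0.03 for Ttc26, -0.21 for Ttc30a1 and -0.26 for Ttc30b. Differences were -0.21 for Wdr60 and -0.15 for Tctex1d2 of dynein-2, and -0.21 for Ttc8 and -0.02 for Bbip1 of the BBSome. The smallest p values of the 28 were those of Kif3c, Rab3ip, Wdr34 and Dynll2, whose groups did not overlap. Kif3c, an alternative partner of Kif3a, was at 1.35 ± 0.0839 RPKM in controls against 1.93 ± 0.394 RPKM with PgrCre (log2 difference 0.46, SD over 3 libraries, adjusted p = 0.212 by limma), but 40.7% of its exon bases face a gene on the other strand. The others had negative differences: Wdr34, an intermediate chain of dynein-2, with a log2 difference of -0.26 (adjusted p = 0.230), Rab3ip, the activator of RAB8 in cilium formation, with -0.20 (0.220), and Dynll2, a light chain of many dyneins, with -0.22 (0.236).

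Markers of cell types are given beside these values. Of 15 multiciliated cell markers, 13 were negative and 1 was called lower (median -0.58, between -0.79 and -0.39 with 1 library left out). Their summed level was between 719 and 975 RPKM in Cdc42f/f and between 572 and 858 RPKM in PgrCreCdc42f/f libraries, so that the ranges overlapped. Foxj1, a master regulator of motile ciliogenesis, stood at 83.9, 120 and 99.7 RPKM against 95.5, 57.2 and 66.3 RPKM (log2 difference -0.49, adjusted p = 0.266), and like Ift88 it was highest in Cdc42f/f replicate 2 and lowest in PgrCreCdc42f/f replicate 2. All 10 smooth muscle markers were positive (0 called, median 0.44), with sums of 1723 to 2666 RPKM against 2428 to 3005 RPKM. All 8 tested leukocyte markers, of 10 listed, were positive and 2 were called higher (median 0.62), with sums of 201 to 230 RPKM against 292 to 409 RPKM. Of 10 epithelial markers 6 were positive and 4 negative (0 called, median 0.09). All PgrCreCdc42f/f values lay above every Cdc42f/f value for 5 of them and below for 1, against 13.5% and 13.9% of all tested genes. All 10 endothelial markers were positive (0 called, median 0.12, 0.07 without PgrCreCdc42f/f replicate 2 and 0.24 without Cdc42f/f replicate 3).

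Some lists were lowest in PgrCreCdc42f/f replicate 1, the library of its genotype in which the IFT genes were at the control level. Fibroblast markers had a median of -0.31 (6 of 10 negative, 0 called), with library medians of -0.99, -0.15 and -0.13 in PgrCreCdc42f/f, and of -0.11 without replicate 1. Secretory cell markers had library medians of -0.50, -0.17 and 0.39 there, and their median of 0.10 (4 of 7 positive, 0 called) was 0.47 without replicate 1 and -0.35 without replicate 3. Of 8 adipocyte markers 4 were tested and 3 were negative (0 called, median -1.22). Their library medians of -1.57, -0.88 and -1.15 in PgrCreCdc42f/f all lay below those in Cdc42f/f, -0.50, 0.19 and 0.20. Of 8 red blood cell markers 5 were tested and 4 were negative (0 called). Their library medians were 0.86, -0.34 and -0.39 in Cdc42f/f and -0.95, 0.03 and -0.64 in PgrCreCdc42f/f. No marker of the multiciliated, smooth muscle or leukocyte lists was at 0 in any library, and the part of cell composition in the values of the 38 genes was not tested.

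Cdc42 itself differed by -0.15 on the log2 scale (133 ± 7.92 against 120 ± 5.99 RPKM, SD, n = 3 each, adjusted p = 0.359, limma), and Pgr by -0.31 (adjusted p = 0.105). Both had lower values in every PgrCreCdc42f/f library, and RPKM over the whole of Cdc42 is a weak check of the removal of 1 exon. Over all genes 157 were called lower and 134 higher. The libraries were of similar depth, with between 42360132 and 46406292 reads recovered.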

How the data were processed

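Oviduct libraries from total RNA were read on a BGISEQ-500. RPKM values per gene symbol and library were deposited by the authors as 1 table. Their processing notes name HISAT2, edgeR and GRCm38 (mm10), the methods of the study name Tophat2, and whether strand was used in counting is not given in the sources used here. Groups and replicate numbers came from the sample labels. The 38 genes and all lists were chosen with earlier results of these data known.

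The test was that of limma 3.58.1 (R 4.3.3, variance trend, 3 against 3, two-sided, no covariates) on log2(RPKM + 0.1) for genes at 0.5 RPKM or more in 3 or more of the 6 libraries, with Benjamini-Hochberg adjustment over all tested genes. Differences are PgrCreCdc42f/f minus Cdc42f/f; the added 0.1 makes those of low genes slightly too small. RPKM multiplied by GENCODE M21 exon length gave whole reads, within 0.01, in all 6 libraries for 98.8% of 35362 rows, which set the depth. The fit was tested on simulated data. Coordinates of genes are those of GENCODE M21 on GRCm38, and promoter sequences those of RefSeq on GRCm38.p6.

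Every one of the 38 genes is named. Values of all 6 libraries are given for up to 3 genes per complex with the smallest p and for its most and least abundant gene in Cdc42f/f. Of the further list the 4 smallest p are named, as are other subunits of IFT-B, dynein-2 and the BBSome. The alternative fits changed the pseudocount to 1 or to 0.01, dropped the filter or required a mean of 2 RPKM, rescaled by median ratios or by quantiles, left out the variance trend, added the replicate number as a block, used limma voom on the recovered reads, or left out 1 library.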

Additional observations from a re-analysis of the deposited data

How the results depend on the processing

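No gene of the 38 was called in any of the 15 alternative fits (limma), and the smallest adjusted p among them was between 0.0625 and 0.274. The medians of the 38 genes ranged from -0.143 to -0.123 under changes of pseudocount, filter, scaling and variance model, and from -0.208 to -0.0777 when 1 library was left out. With 3 libraries per genotype and standard errors up to 0.27, small differences of single genes were not detectable, and RPKM carries no correction for fragment composition.

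Leaving out 1 library turned the sign of 9 of the 38 genes. The lowest and highest log2 differences were then -0.122 and 0.0628 for Ift43, -0.111 and 0.00419 for Ttc21b, -0.173 and 0.0176 for Ift81, -0.0651 and 0.1003 for Ift20, -0.0750 and 0.0382 for Kifap3, -0.0831 and 0.0843 for Bbs4, -0.149 and 0.0433 for Bbs9, -0.138 and 0.356 for Mkks, and -0.0491 and 0.142 for Arl6. The median of the chaperonin-like genes ranged from -0.138 to 0.280, and that of the GTPases and adaptor from -0.0491 to 0.142. The cause was not tested. Of the 31 genes that were negative with all libraries, between 26 and 31 were negative in these fits. The medians of the other complexes ranged from -0.273 to -0.123 in IFT-A, from -0.215 to -0.0787 in the IFT-B core, from -0.223 to -0.0890 in peripheral IFT-B and from -0.200 to -0.0207 in the BBSome.

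Over all genes, 157 were called lower and 134 higher. Leaving out 1 library gave 3 to 179 lower and 9 to 132 higher, the lowest counts coming without Cdc42f/f replicate 2 or 3. Without a filter the counts were 51 and 57, with voom on the recovered reads 258 and 252, and without a variance trend 75 were higher. The replicate number as a block called 0 in each direction, and Bbs2 had the smallest adjusted p of the 38, 0.188. The same-numbered samples of the genotypes did not deviate together (correlations of -0.03, -0.07 and 0.08 over 17584 genes), so they were not taken as pairs.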
